A study of Rattus norvegicus with 6 samples.

Results

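The genes described here are 3 small leucine-rich proteoglycans of tendon, decorin (Dcn, ENSRNOG00000004554), lumican (Lum, ENSRNOG00000004610) and fibromodulin (Fmod, ENSRNOG00000003183). They were chosen by identifier, for their known place in tendon, with earlier results of these data known. Each of them is present among the 22250 gene IDs of the count table. All 3 also passed the filter on low counts that left 15122 genes to test. Messenger RNA was sequenced from the tendon of Sprague-Dawley rats whose achilles tendon had been cut through and sutured, on day 14. No injection is described for the injury model group (n = 3), and whether it received a vehicle is not stated. The celecoxib + lactoferrin group (n = 3) had both agents injected at the wound each day. Celecoxib inhibits cyclooxygenase-2, and lactoferrin is an iron-binding glycoprotein of milk. Every animal compared here therefore carried the same surgical lesion, and values are relative to the injury model, not to intact tendon. The labels give 14 d as an age, whereas the methods count it from surgery.

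Small leucine-rich proteoglycans are secreted proteins whose leucine-rich repeats bind the surface of collagen fibrils. Bound in this way they limit the sideways fusion of fibrils, and through it they set fibril diameter and spacing. Dcn carries a chondroitin or dermatan sulfate chain, whereas Lum and Fmod carry keratan sulfate, and Lum and Fmod are known to share a binding region on collagen. Tendon fibroblasts are their main source in tendon. In a sample of whole tissue, fewer cells of that type and less RNA per cell cannot be told apart.

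Library totals lay between 34546567 and 47181784 counts, and the TMM scaling factors of the 6 libraries lay between 0.907 and 1.09. The mean correlation of a library with the other 5, over log2 CPM of all genes tested, lay between 0.902 and 0.936. It was lowest in celecoxib + lactoferrin replicate 1 (0.902), followed by replicate 2 of that group (0.919), and was 0.931 or more in the remaining libraries. The deposited table gives gene IDs without symbols. The RefSeq gene table used here held no Ensembl IDs, so 0 of them could be matched to it. Other tendon genes and the markers of muscle, fat, blood vessel, cartilage and immune cells were for this reason not analysed here. The tissue label was therefore not checked. The 3 proteoglycan genes themselves were well expressed in all 6 libraries.

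In the RefSeq gene table for the rat assembly GRCr8, Dcn and Lum stand side by side on the same chromosome with 0 genes between them, followed by Kera and Epyc, which encode keratocan and epiphycan of the same family. Fmod lies on another chromosome. Upstream sequence from RefSeq on GRCr8 was matched for 2 of the 3 genes, Lum and Fmod, and not for Dcn. It is shown as description, and a link between these sequences and the levels of the genes was not tested. The sequences are the 150 bases before the annotated start, with every match to one of 4 motifs in capitals. Lum lies at chr7:34245556-34245705 and Fmod at chr13:48045417-48045566, both on the plus strand.
Lum: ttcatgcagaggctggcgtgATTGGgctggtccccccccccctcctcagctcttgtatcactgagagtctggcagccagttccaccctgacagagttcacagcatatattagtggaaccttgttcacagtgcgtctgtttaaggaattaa
Fmod: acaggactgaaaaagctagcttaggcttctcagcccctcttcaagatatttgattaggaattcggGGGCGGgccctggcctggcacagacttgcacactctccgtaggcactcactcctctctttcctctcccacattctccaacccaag

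The motifs searched on both strands were the TATA box (TATAAA), the CCAAT box (CCAAT), the GC box (GGGCGG) and the E-box (CANNTG), and no match overlapped another. The window of Lum held 1 match, a CCAAT box on the minus strand that ended at position -126 from the start. The window of Fmod held 1 match, a GC box on the plus strand that began at position -85. Among 33469 rat promoter windows of the same length, 23.5% held a CCAAT box, 26.0% a GC box, 8.0% a TATA box and 46.6% an E-box. The pair thus had no motif match in common.

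Levels are given in CPM after TMM scaling, that is, as counts relative to the scaled total of each library. They were set side by side between rats and not between genes, since transcript length was not corrected for. Dcn, the decorin gene, stood at 2034, 1309.7 and 1847 CPM in injury model replicates 1, 2 and 3, from 86984, 62937 and 62314 counts. In celecoxib + lactoferrin replicates 1, 2 and 3 it stood at 2395, 648 and 1566 CPM, from 82020, 22373 and 78909 counts. The highest and the lowest value of Dcn were thus both found in treated rats, and the groups overlapped. The group means were 1730.0 ± 376 CPM (SD, n = 3) in the injury model and 1536 ± 874 CPM (SD, n = 3) under treatment.

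Lum, the lumican gene, stood at 3559, 2011 and 3355 CPM in injury model replicates 1, 2 and 3. It stood at 3283, 1228 and 2182 CPM in celecoxib + lactoferrin replicates 1, 2 and 3. The groups overlapped again, with replicate 2 the lowest of each group. The means were 2975 ± 841 CPM (SD, n = 3) in the injury model and 2231 ± 1028 CPM (SD, n = 3) under treatment.

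Fmod, the fibromodulin gene, stood at 1686, 901 and 1826 CPM in injury model replicates 1, 2 and 3. It stood at 2894, 678 and 1718 CPM in celecoxib + lactoferrin replicates 1, 2 and 3. As with Dcn, the treated rats held both extremes, 4.27-fold apart, whereas the injury model rats were 2.03-fold apart. The means were 1471 ± 498 CPM (SD, n = 3) in the injury model and 1764 ± 1109 CPM (SD, n = 3) under treatment.

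**Figure D1:**
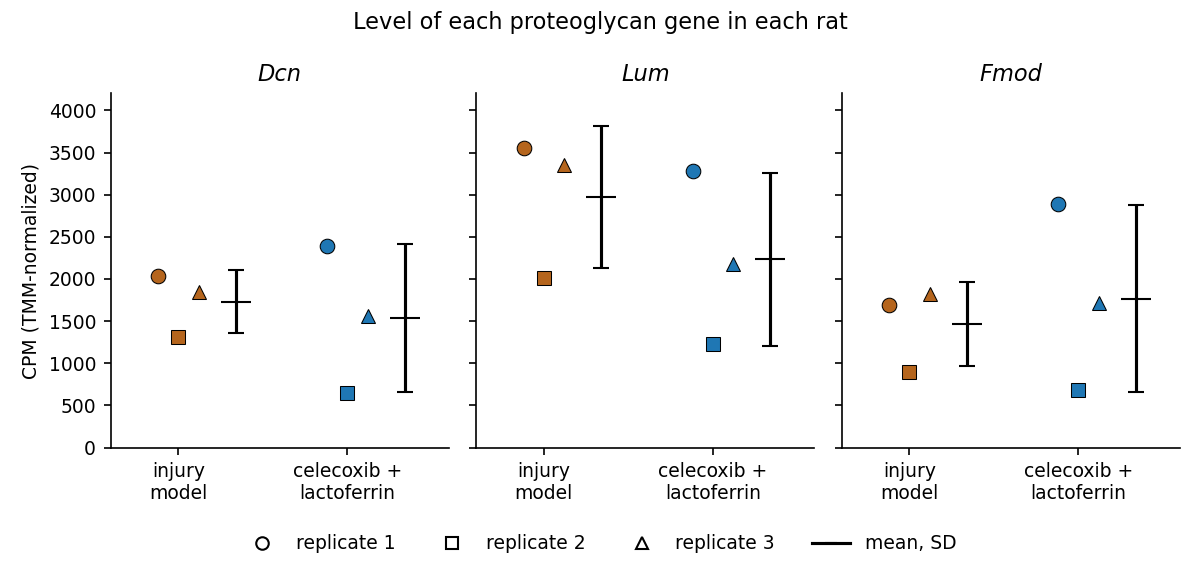
CPM (TMM-normalized, linear axis from 0) of Dcn, Lum and Fmod in each rat, with the replicate number as the marker shape and the mean and SD (n = 3) of each group as a black bar. Replicate 2 is the lowest rat of its group in all 3 genes, and treated replicate 2 is the lowest of the 6 rats, at 648, 1228 and 678 CPM.

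None of the 3 genes passed the test between the groups, and the 2 groups overlapped in each of them. With edgeR's quasi-likelihood test on all 15122 genes, 0 of 3 had an unadjusted p-value under 0.05, against 2.61% of all genes tested. After Benjamini-Hochberg adjustment 0 of 3 were called, against 0.00661% of all genes, which is 1 gene. DESeq2 and voom, run on the same table, also called 0 of 3 at the unadjusted threshold. Over all genes DESeq2 called 578 of 17992 there and 26 after adjustment, and voom 495 of 15122 and 3. For Dcn the log2 fold change of treated over injury model rats was -0.17 (standard error 0.44, adjusted p = 0.998, edgeR). For Lum it was -0.42 (standard error 0.39, adjusted p = 0.998, edgeR), the largest change in size of the 3. For Fmod it was 0.26 (standard error 0.52, adjusted p = 0.998, edgeR), with the opposite sign. By size, 78.8% of all genes tested had a smaller absolute log2 fold change than Lum, 61.6% a smaller one than Fmod and 44.9% a smaller one than Dcn.

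The 95% interval of the fold ran from 0.434 to 1.82 for Dcn, from 0.402 to 1.4 for Lum and from 0.513 to 2.8 for Fmod. All 3 intervals hold a fold of 1, with wide margins to both sides. The data therefore neither show a change in these genes nor show that they were left as they were.

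**Figure D2:**
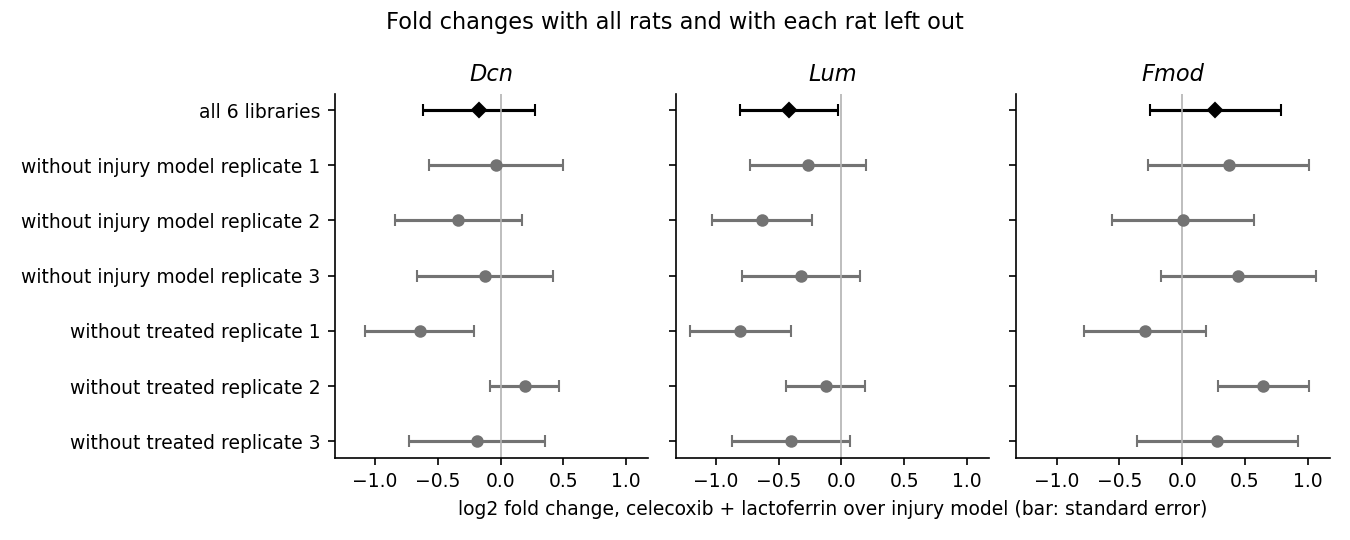
Log2 fold change (celecoxib + lactoferrin over injury model) of Dcn, Lum and Fmod from edgeR with all 6 libraries (black) and with each rat left out (grey), with bars of 1 standard error. The value of Dcn crosses 0 to 0.19 without treated replicate 2, that of Fmod crosses to -0.30 without treated replicate 1, and that of Lum stays below 0, between -0.80 and -0.13.

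The estimates rested on single rats. Without celecoxib + lactoferrin replicate 2, the lowest rat, the log2 fold change was 0.19 for Dcn, -0.13 for Lum and 0.65 for Fmod. Without celecoxib + lactoferrin replicate 1, the highest treated rat, it was -0.65 for Dcn, -0.80 for Lum and -0.30 for Fmod. Dcn and Fmod thus changed sign with the rat left out, whereas Lum kept a negative sign in each of the 6 fits, with unadjusted p-values of 0.0848 or more (edgeR).

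The spread between rats was wide beside that of all genes with a mean of at least 100 CPM. The 3 genes lie far above this limit, and genes of their own level were not compared separately. The pooled SD of log2 CPM within groups was 0.72 for Dcn, 0.60 for Lum and 0.85 for Fmod. The median over the 1497 genes with a mean of at least 100 CPM was 0.26, and 92.5% of those genes had a smaller SD than Dcn, 90.0% a smaller one than Lum and 93.9% a smaller one than Fmod. Counting error was small beside this spread: the 95% Poisson interval of the smallest count, 22373 for Dcn in treated replicate 2, was 1.3% to either side. Within groups the SD of log2 CPM was larger under treatment in all 3 genes, 0.96 against 0.33 for Dcn, 0.71 against 0.45 for Lum and 1.1 against 0.56 for Fmod. This difference was not tested. The share of all genes with a larger SD under treatment was not computed, so it cannot be read as particular to these 3 genes.

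**Figure D3:**
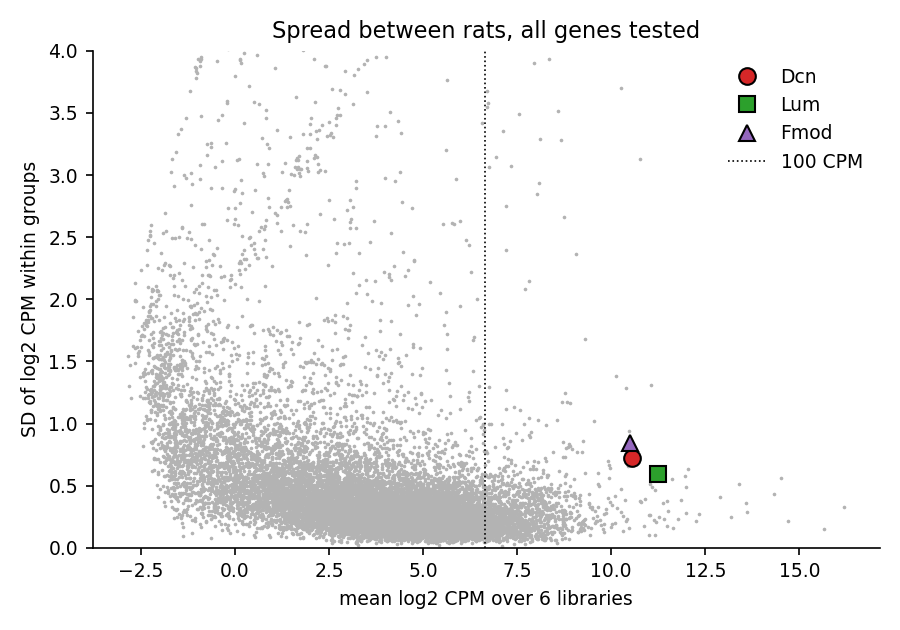
Pooled SD of log2 CPM within groups (vertical axis) against mean log2 CPM over 6 libraries (horizontal axis) for all genes tested (grey), with Dcn, Lum and Fmod marked and a dotted line at 100 CPM. The 3 genes lie on the upper side of the abundant genes, at 0.72, 0.60 and 0.85, and 43 genes with an SD above 4 lie outside the axis.

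The lowest value of each gene was that of celecoxib + lactoferrin replicate 2. The difference in log2 CPM between this library and the mean of the other 5 was -1.47 for Dcn, -1.19 for Lum and -1.32 for Fmod. Among the 1497 genes of at least 100 CPM, 1.47% were further below in this library than Dcn, 2.54% further than Lum and 1.8% further than Fmod. This library was also the lowest of the 6 in 28.6% of those genes, the largest share of any library, the other shares lying between 6.61% and 21.7%. Its part in the result beyond these values was not tested. Together the 3 genes took 0.255% of the counts of this library, 0.834% of those of treated replicate 1 and 0.595% of those of treated replicate 3. In injury model replicates 1, 2 and 3 they took 0.66%, 0.45% and 0.686%.

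Across the 6 rats the 3 genes went up and down with one another. Pearson's r of log2 CPM between Dcn and Lum was 0.956 (exact permutation p = 0.014, adjusted over 3 pairs 0.021) and Spearman's rho was 0.829 (exact permutation p = 0.058, adjusted 0.087). Between Dcn and Fmod r was 0.921 (exact permutation p = 0.011, adjusted 0.021) and rho was 0.829 (exact permutation p = 0.058, adjusted 0.087). Between Lum and Fmod r was 0.855 (exact permutation p = 0.042, adjusted 0.042) and rho was 0.6 (exact permutation p = 0.24, adjusted 0.24). All tests were two-sided, and all values share the scaling of their library.

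With the 2 rats farthest from the median of the first gene left out, r was 0.954 for Dcn and Lum and 0.82 for Dcn and Fmod. The rats left out for these pairs were treated replicates 1 and 2. For Lum and Fmod r was 0.249 without treated replicate 2 and injury model replicate 2. In Lum, injury model replicates 1 (log2 CPM 11.8) and 2 (10.97) lay nearly equally far from the median. The value without replicate 1 in place of replicate 2 was not computed. Without treated replicate 2 alone, a choice made after the values were seen, r was 0.877 for Dcn and Lum (exact permutation p = 0.083, n = 5), 0.91 for Dcn and Fmod (exact permutation p = 0.067, n = 5) and 0.68 for Lum and Fmod (exact permutation p = 0.25, n = 5).

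**Figure D4:**
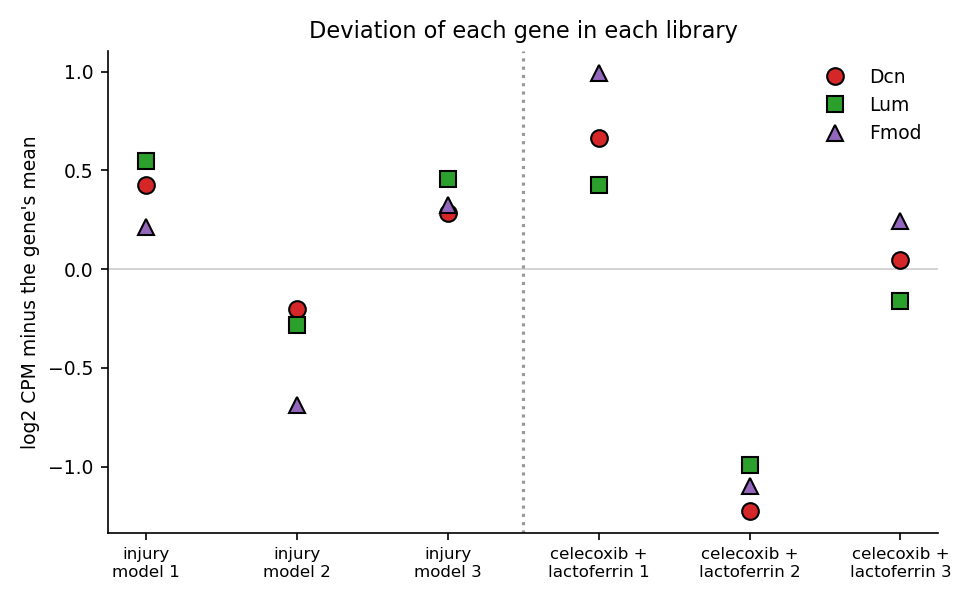
Log2 CPM minus the gene's own mean over 6 libraries (vertical axis) for Dcn, Lum and Fmod in each library, with a dotted line between the groups. All 3 genes are below their means in replicate 2 of both groups, and Fmod has the lowest of the 3 deviations in injury model replicates 1 and 2 and the highest in treated replicates 1 and 3.

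Many other genes followed the same pattern over the rats. Among 8971 other genes with a mean of at least 10 CPM, 452 (5.04%) had an r above 0.9 with Dcn over the 6 libraries, and Lum ranked 116 and Fmod 319 in that order. For Lum, 369 genes (4.11%) passed 0.9, and Fmod ranked 633. The gene outside the 3 most like Dcn was ENSRNOG00000001223 (r = 0.9973, n = 6 libraries), with 120.0, 105 and 117 CPM in injury model replicates 1 to 3 and 123, 85.0 and 109 CPM in treated replicates 1 to 3. The gene most like Fmod was ENSRNOG00000014532 (r = 0.9951, n = 6 libraries). It stood at 269, 73.6 and 351 CPM in injury model replicates 1 to 3 and at 1103, 29.3 and 387 CPM in treated replicates 1 to 3. Its range was far wider than that of Fmod, with the lowest and the highest value again in treated replicates 2 and 1.

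The ratio of each gene pair varied less over the 6 libraries than the level of either gene. A ratio of 2 genes within a library does not depend on depth or scaling, and gene length cancels when groups are compared. The SD of the log2 ratio of Lum to Dcn over the 6 libraries was 0.20, against 0.60 for Lum and 0.67 for Dcn alone. Set against Dcn in this way, 0.334% of 1496 other genes of at least 100 CPM had a smaller SD than Lum and 2.07% a smaller one than Fmod, whose SD was 0.30, and the median of these genes was 0.69. The ratio of Fmod to Lum was the least steady, with an SD of 0.40 against 0.76 for Fmod alone. Set against Lum, 10.8% of the 1496 genes had a smaller SD than Fmod, and their median was 0.61.

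In counts, there were 0.829, 0.688 and 0.989 Fmod counts for each Dcn count in injury model replicates 1, 2 and 3. In celecoxib + lactoferrin replicates 1, 2 and 3 there were 1.21, 1.05 and 1.1. Every treated rat thus lay above every injury model rat. The margin was small between treated replicate 2 (1.05), the lowest rat in both genes, and injury model replicate 3 (0.989). The mean log2 ratio was -0.28 ± 0.26 (SD, n = 3) in the injury model and 0.16 ± 0.11 (SD, n = 3) under treatment, a difference of 0.43 or 1.35-fold (two-sided exact permutation test, p = 0.1, adjusted over 3 ratios 0.15). With 3 rats against 3 no smaller p than 0.1 can be had, so the test could not have called it.

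For Fmod to Lum the count ratios were 0.474, 0.448 and 0.544 in injury model replicates 1, 2 and 3 and 0.882, 0.552 and 0.787 in treated replicates 1, 2 and 3. The groups did not overlap here either, but treated replicate 2 and injury model replicate 3 were nearly level. This ratio shares its Fmod counts with Fmod to Dcn, so the 2 separations are not independent. The mean log2 ratio was -1.04 ± 0.14 (SD, n = 3) in the injury model and -0.46 ± 0.35 (SD, n = 3) under treatment, a difference of 0.58 or 1.49-fold (two-sided exact permutation test, p = 0.1, adjusted 0.15).

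Lum to Dcn gave count ratios of 1.75, 1.54 and 1.82 in injury model replicates 1, 2 and 3 and 1.37, 1.89 and 1.39 in treated replicates 1, 2 and 3. These groups overlapped, as treated replicate 2 had the highest ratio of all. The difference in the mean log2 ratio was -0.14 (two-sided exact permutation test, p = 0.4, adjusted 0.4).

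**Figure D5:**
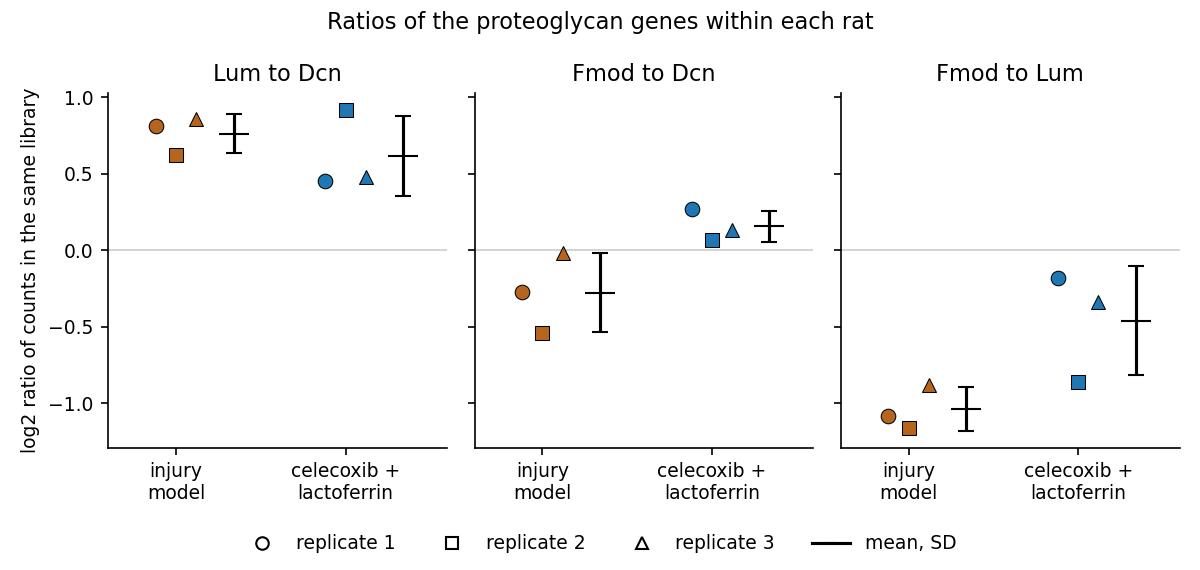
Log2 ratio of counts within each library (vertical axis) for Lum to Dcn, Fmod to Dcn and Fmod to Lum, with the replicate number as the marker shape and the mean and SD (n = 3) of each group as a black bar. The Fmod to Dcn ratios of the treated rats (0.07 to 0.27) all lie above those of the injury model rats (-0.54 to -0.02), whereas the Lum to Dcn ratios overlap.

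How often such a separation occurred was read from all genes. In CPM, the groups did not overlap in 7.80% of genes tested, in either direction, and they overlapped in all 3 proteoglycan genes. Relative to Dcn, 1.45% of the other genes lay higher in every treated rat than in every injury model rat, as Fmod did. Relative to Lum the share was 4.16%, and Fmod was again among these genes. Both shares count higher values only, whereas the 7.80% counts either direction. Each ratio also carries the spread of Dcn or Lum itself. Relative to Dcn the median SD of the 1496 genes of at least 100 CPM was 0.69, against 0.30 for Fmod. The shares therefore do not show how rare the separation of Fmod is. In the size of the difference Fmod did not stand apart, since relative to Dcn 69.3% of the 1496 genes of at least 100 CPM had a lower difference between group means.

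The 6 libraries fell into 3 deeper and 3 shallower ones that cross the groups. Among the deeper libraries the Fmod to Dcn ratio was 0.688 and 0.829 in 2 injury model rats and 1.1 in 1 treated rat. Among the shallower ones it was 0.989 in 1 injury model rat and 1.05 and 1.21 in 2 treated rats. Each depth held a single rat of one group, so no test was made within it.

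As a share of the counts of the 3 genes together, Fmod took 23.2%, 21.3% and 26.0% in injury model replicates 1, 2 and 3 and 33.8%, 26.6% and 31.4% in treated replicates 1, 2 and 3. Lum took 48.9%, 47.6% and 47.7% in the injury model rats and 38.3%, 48.1% and 39.9% in the treated rats, where replicate 2 stood with the injury model rats. Dcn took between 25.4% and 31.0% in all 6 rats, with no order by group. These shares restate the counts behind the ratios.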

How the data were processed

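Total RNA was extracted with TRIzol and sequenced by Illumina, and clean reads were mapped by HISAT2 to the rat reference. The authors deposited raw counts per rat Ensembl gene ID, with no normalization. The labels list the human build GRCh38.p13, which rat gene IDs contradict. The counting tool, its strand setting and its treatment of reads shared by several genes are not given in the sources used here. Columns were assigned to rats by the sample names the study uses for both groups.

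The counts of all 6 libraries were fitted in edgeR 4.0.16 (R 4.3.3) with filterByExpr by group, TMM scaling, robust quasi-likelihood dispersion and Benjamini-Hochberg adjustment over all genes tested. The standard error was taken as the absolute log2 fold change over the square root of F, and the 95% interval from the degrees of freedom of the test. Log2 CPM used a prior count of 2. DESeq2 1.42.0 and voom from limma 3.58.1 (with weights for sample quality) served as alternatives. Ratios were tested with exact permutation in scipy 1.17.1. The fits were also run on simulated counts, drawn independently for each gene and library. These held no outlying library and no correlation between genes, so they do not cover such features of the data. Each library is taken as 1 rat, and Poisson intervals cover counting error only.

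The genes, lists and tests were chosen with earlier results of these data known. Genes named in the text are the 3 proteoglycans and, with no symbols at hand, the single best match of Dcn and of Fmod by Pearson's r. The lists of other proteoglycans, collagens, collagen cross-linking and sulfation enzymes, proteases and cell type markers could not be matched to IDs and were left out. Other alternatives were the scaling, the filter, a replicate block, a term for depth and each rat left out in turn.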

Additional observations from a re-analysis of the deposited data

How the results depend on the processing

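In each alternative 0 of the 3 genes had an unadjusted p-value under 0.05, the lowest being 0.0616 for Lum with a replicate block. The log2 fold change of Dcn (-0.17) turned to 0.068 with voom and sample quality weights, and with each rat left out it ran from -0.65 to 0.19. That of Fmod (0.26) ran from -0.30 to 0.65 with each rat left out, and that of Lum (-0.42) from -0.80 to -0.13. With the replicate block the values were -0.34 for Dcn, -0.48 for Lum and 0.09 for Fmod. Whether rats of the same number belong together is not stated in the sources used here. Over all genes their deviations correlated at 0.0048, 0.057 and -0.27, which with 3 rats in a group cannot decide it. In these 3 genes replicate 2 was the lowest rat of both groups. The block lowered the standard error from 0.44 to 0.28 for Dcn, from 0.39 to 0.21 for Lum and from 0.52 to 0.28 for Fmod. Otherwise the 3 genes kept their direction under DESeq2, library size alone, DESeq2 size factors, scaling without the 10 most abundant genes and the 3 genes, both other filters and a term for depth. Library size alone moved the median change of all genes (log2) from 0.0067 to 0.06. The ratio differences kept their direction with each rat left out and as ratios of group means. For Fmod to Dcn and Fmod to Lum, whose groups do not overlap, neither of these could have reversed it. Pairing by number leaves all ratio differences as they were by construction. Over the fits without 1 rat they ran from 0.30 to 0.56 for Fmod to Dcn, from 0.44 to 0.78 for Fmod to Lum and from -0.30 to -0.06 for Lum to Dcn. The count of all genes below the unadjusted threshold of 0.05 (395) was 223 with a term for depth and ran from 226 to 890 with each rat left out, and the cause was not tested. At the depth of these libraries, the 95% Poisson interval was at most 1.3% to either side for any value of the 3 genes.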
